A study of Populus davidiana with 6 samples.

Results

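The 93 genes described here were scarcely detected in control leaves and were detected in every air-dried leaf library of Populus davidiana, an Asian aspen. They are the genes with at least 1 annotated transcript whose summed level was under 1 FPKM in all 3 control libraries and at least 2 FPKM in all 3 air-dried libraries. FPKM, the unit of the deposited values, counts sequenced fragments per kilobase of transcript relative to the library's total, so levels of different genes are given per length. The 93 were drawn from 38379 genes with an annotated transcript and 40537 gene identifiers in all. Of the 16744 annotated genes under 1 FPKM in all 3 controls, 0.555% met the rule. The genes were thus chosen by their FPKM in the same 6 libraries, and their levels are given as a description with no test.

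The air-dried group was 3 leaf libraries from plants that had been lifted out of their medium, rinsed with sterile water and then exposed to open air for some 10 min. The control group was 3 leaf libraries from plants that, per their titles, were controls. What was done to the control plants is not stated, so lifting, rinsing and drying cannot be told apart, and "air-dried" stands for all of them. All 6 libraries were of the cultivar Odae19, labelled as tolerant to drought, and no other cultivar was analysed here. The plants of both groups were propagated from internodes in culture on a sucrose medium with naphthalene acetic acid, an auxin, and were about 6 weeks old. Nothing states that the libraries of a group came from separate plants or cultures.

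Leaves that lose water quickly lose turgor, and plant cells respond with calcium signals, reactive oxygen and the hormone abscisic acid, which closes stomata. Wounding and touch call up overlapping responses, with jasmonate and ethylene among the hormones involved. These signals act through transcription factors, and many of the genes they control are scarcely transcribed in unstressed leaves. Which of these roles the 93 genes have is not given here, because the files pair no identifier with a name (0 names) and no name table was used. For that reason 2 genes are given by identifier and the others by their place in the genome. The labelled tissue could not be checked against leaf markers for the same reason. No sequence is printed because no genome or sequence table was used here.

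The libraries were alike in the number of genes detected, between 22242 and 22404 genes at 1 FPKM or more in the air-dried libraries and between 22075 and 22225 in the controls. No pair of libraries was a duplicate, with at most 43 of 22559 tested genes at exactly equal FPKM (a tolerance of 0) between any pair. By correlation of log2 values across genes, the libraries did not separate cleanly by group. Control 3 correlated at r = 0.943 and 0.941 with air-dried 2 and 3, and at 0.936 and 0.935 with controls 1 and 2. Air-dried 1 correlated at 0.933 and 0.938 with air-dried 2 and 3, and at 0.930, 0.923 and 0.911 with controls 1, 2 and 3. The value was 0.959 between air-dried 2 and 3 and 0.953 between controls 1 and 2. Absolute depth is unknown because FPKM carries no counts. Transcripts spanning up to 150 bp took 38.6%, 77.2% and 40.1% of the summed FPKM in air-dried 1, 2 and 3. In controls 1, 2 and 3 they took 45.6%, 73.3% and 73.1%. The summed FPKM was 1835112, 4180878 and 1711808 in air-dried 1, 2 and 3, and 2031732, 3958425 and 3257030 in controls 1, 2 and 3. Both quantities were thus highest in air-dried 2 and in controls 2 and 3, and the groups were unevenly split.

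Together, the 93 genes summed to 929, 680 and 763 FPKM in air-dried 1, 2 and 3, against 36.9, 36.3 and 35.0 FPKM in controls 1, 2 and 3. The sum was 791 ± 127 FPKM in air-dried leaves and 36.1 ± 0.964 FPKM in controls (SD, n = 3 each). Most of the excess of air-dried 1 came from a single gene described below, and without it the sums were 791, 674 and 731 FPKM in the air-dried libraries. The median gene stood at 4.54, 3.73 and 4.97 FPKM in air-dried 1, 2 and 3, and at 0.316, 0.343 and 0.355 FPKM in controls 1, 2 and 3. On the log2(FPKM + 1) scale the median difference of the 93 genes, air-dried minus control, was 2.09, with a range of 0.75 to 5.10, beside 0.0037 for all 22559 tested genes. This scale understates the change of low genes, and the rule fixed the direction. In whole leaves, more cells holding these transcripts and more RNA per cell cannot be told apart.

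**Figure D1:**
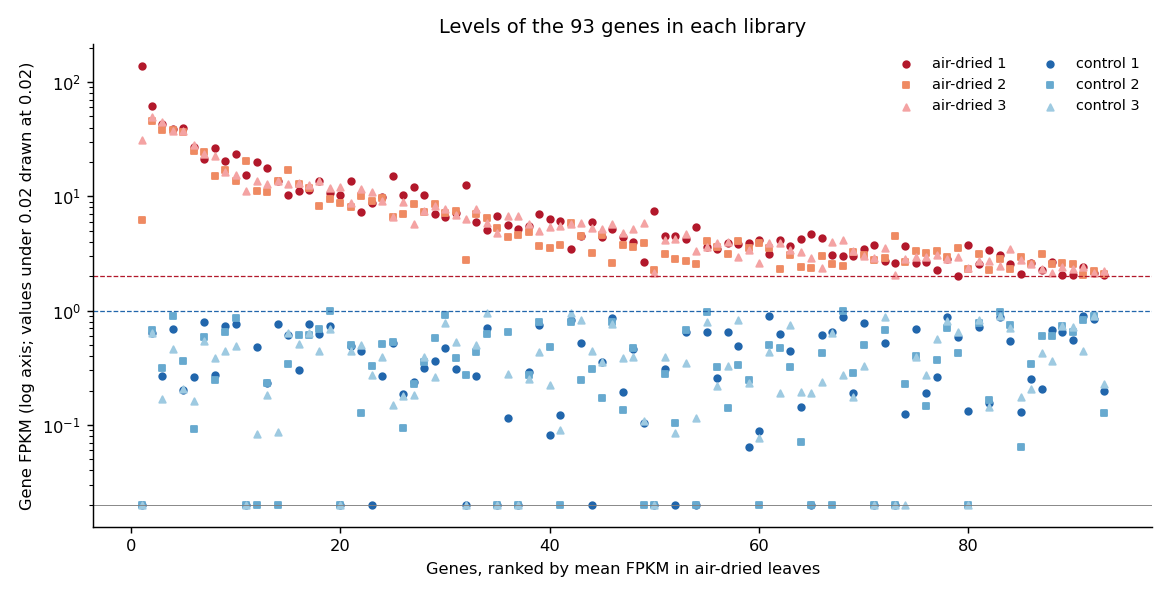
Gene FPKM (log axis) of the 93 genes in each library, ranked by their mean in air-dried leaves, with the 3 air-dried libraries in red shades and the 3 controls in blue shades. Dashed lines mark the 2 FPKM floor and the 1 FPKM ceiling of the rule, and values under 0.02 FPKM are drawn at 0.02; 21 genes average 10 FPKM or more after air-drying, and 51 lie under 5 FPKM.

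Most of the 93 genes reached only low levels. Their mean in air-dried leaves was under 5 FPKM in 51 genes, 5 to 10 FPKM in 21 and 10 FPKM or more in 21, and the last 21 held 59.9% of the summed mean. In 40 genes the lowest air-dried library lay under 3 FPKM, close to the floor. In 16 genes all 3 air-dried libraries reached 10 FPKM, and in 6 genes all 3 reached 20 FPKM.

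The 6 genes at 20 FPKM or more in every air-dried library were steady there, with a ratio of the highest to the lowest air-dried library of 1.04 to 1.34. POPTR_0002s00350 (chromosome 2, 93065 to 94085, plus strand, 1 annotated transcript) measured 61.3, 45.8 and 49.9 FPKM in air-dried leaves and 0.642, 0.684 and 0.640 FPKM in controls. Its lowest air-dried value was 66.9 times its highest control value. A minus-strand gene on chromosome 17 (1781538 to 1783081) stood at 42.6, 38.4 and 44.7 FPKM after air-drying, against 0.270, 0.313 and 0.169 FPKM in controls. The gap between its groups, 123-fold from the lowest air-dried to the highest control value, was the widest among the 85 genes in which this ratio could be formed. Over those 85 genes the gap ranged down to 2.30-fold, with a median of 10.5, and 44 genes had a gap of at least 10-fold.

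The other 4 of these 6 genes lay on chromosomes 18, 6 and 3. The chromosome 18 gene (8591115 to 8592969, minus strand) had 38.8, 38.0 and 37.2 FPKM in air-dried leaves and 0.692, 0.891 and 0.466 FPKM in controls. One chromosome 6 gene (22192804 to 22193878, plus strand) had 40.0, 36.2 and 37.2 FPKM in air-dried leaves and 0.204, 0.363 and 0.205 FPKM in controls. Both held nearly 1 level across the 3 air-dried libraries. A second chromosome 6 gene (11403548 to 11404485, plus strand) measured 26.8, 24.8 and 28.2 FPKM in air-dried leaves and 0.265, 0.0918 and 0.163 FPKM in controls. The chromosome 3 gene (9439142 to 9440943, plus strand) measured 21.3, 24.5 and 23.6 FPKM in air-dried leaves and 0.800, 0.585 and 0.541 FPKM in controls.

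The gene with the highest mean of all was the least steady. POPTR_0018s06230 (chromosome 18, 5951950 to 5952129, plus strand) has 1 annotated transcript and spans only 180 bp. The gene measured 138, 6.24 and 31.2 FPKM in air-dried 1, 2 and 3 and was listed at 0 in all 3 controls. Its air-dried libraries differed 22.2-fold, and no other of the 93 genes passed 5-fold. FPKM is least certain for transcripts about as short as a sequenced fragment. The 4 genes spanning under 500 bp were all listed at 0 in all 3 controls. The other 3 of these short genes had 6.76, 5.33 and 4.76 FPKM (216 bp, chromosome 1), 7.49, 2.27 and 2.12 FPKM (367 bp, chromosome 9) and 2.60, 4.51 and 2.04 FPKM (397 bp, chromosome 19) in air-dried 1, 2 and 3.

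Among the 93 genes, being listed at 0 in the controls was the exception. At least a trace was listed in all 3 controls for 71 of the 93 genes, while 10 genes were at 0 (under 0.001 FPKM) in 1 control, 4 in 2 controls and 8 in all 3. By contrast, 11145 of the 16744 annotated genes under 1 FPKM in all 3 controls were listed at 0 in all 3. Besides the 4 short genes, the 8 included a plus-strand gene of 901 bp on chromosome 7 (10096198 to 10097098) with 10.3, 8.77 and 12.1 FPKM in air-dried leaves. Another on chromosome 7 (2090673 to 2091752, plus strand) had 3.78, 2.76 and 2.90 FPKM in air-dried leaves. No fold is given for these genes, since a listed 0 can also be a failed estimate. At the other end, the highest control value was 0.75 FPKM or more in 25 genes and under 0.5 FPKM in all 3 controls in 45 genes.

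Values at the edges of the rule lay close together. Just inside the floor, the lowest air-dried values were 2.01, 2.04 and 2.04 FPKM, and just outside it they were 1.98, 1.95 and 1.91 FPKM. The highest control values just inside the ceiling were 0.995, 0.994 and 0.983 FPKM, and just outside it 1.01, 1.02 and 1.02 FPKM. A further 45 annotated genes under 1 FPKM in all controls reached 2 FPKM in 2 of the 3 air-dried libraries, with the missing value in air-dried 1 for 16, in air-dried 2 for 15 and in air-dried 3 for 14. With the groups exchanged, 3 annotated genes met the same values (0.0182% of the 16465 annotated genes whose air-dried values all lay under 1 FPKM), and all 3 were listed at 0 in every air-dried library. They spanned 207, 216 and 607 bp.

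In the limma fit of all 22559 tested genes, 3.61% were called higher and 0.696% lower in air-dried leaves (limma, Benjamini-Hochberg adjusted p under 0.05, n = 3 per group). These were 814 genes higher and 157 lower, against 1730 higher and 786 lower with library weights. In a fit without air-dried 1 and control 3, chosen after seeing the data, 784 were higher and 543 lower. All 93 genes passed the filter of 1 FPKM in at least 3 libraries through their air-dried values. In the main fit, of all 6 libraries without weights, 92 of them were called higher. Since the rule used the same contrast, nothing is read from that count. POPTR_0018s06230, with its 22.2-fold spread, was the gene not called.

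Which air-dried library held a gene's highest value went with gene span. Of the 93 genes, 41 had their highest value in air-dried 1, 21 in air-dried 2 and 31 in air-dried 3. Among the 47 genes spanning under 1200 bp, 27 peaked in air-dried 1 (57.4%), 4 in air-dried 2 and 16 in air-dried 3. Among the 46 genes of 1200 bp or more the numbers were 14 (30.4%), 17 and 15. The same was seen in other annotated genes at 2 FPKM or more in all air-dried libraries and with a mean no higher than that of the 93. There, 58.8% of 1075 genes under 1200 bp and 35.0% of 15151 longer genes peaked in air-dried 1. The 1200 bp limit was chosen after the values were seen, and the part of span in which library was highest was not tested.

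**Figure D2:**
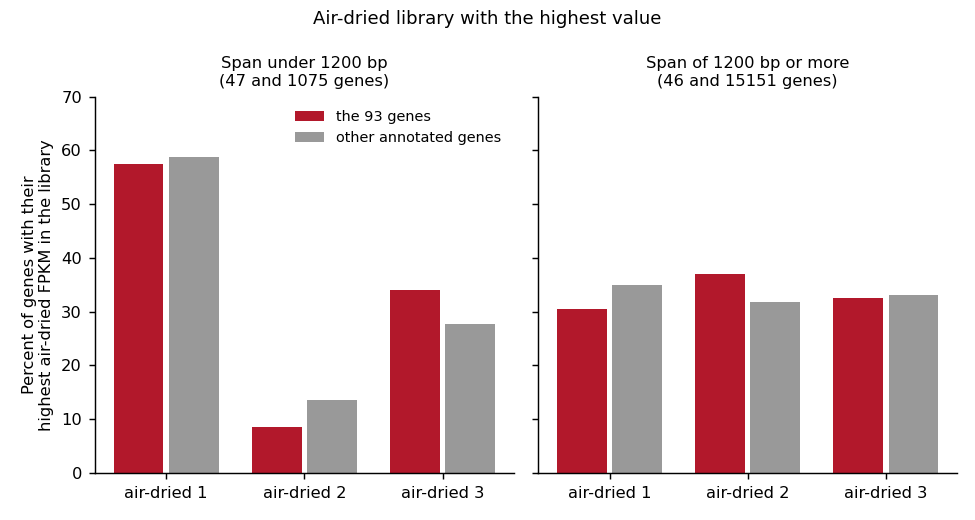
Percent of genes whose highest air-dried FPKM fell in air-dried 1, 2 or 3, for the 93 genes (red) and for other annotated genes of the same range of levels (grey), split at a genomic span of 1200 bp. Under 1200 bp, 57.4% of the 93 genes and 58.8% of the others peak in air-dried 1; in longer genes the 3 libraries are nearly even.

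The spread among air-dried libraries was modest in most of the 93 genes. The ratio of the highest to the lowest air-dried value was under 1.5 in 58 genes, 1.5 to 2 in 26 and 2 or more in 9, with a median of 1.38. In 16226 other annotated genes of the same range of levels the median was 1.20. A ratio of 2 or more was seen in 3.11% of them, beside 9.68% of the 93. Those shares are not matched for span or level, as the medians that follow are. At means under 5 FPKM the median ratio was 1.58 for the 24 genes spanning under 1200 bp, beside 1.47 for 281 other annotated genes of that span and level. For the 27 longer genes it was 1.26, as it was for 2437 other genes. From 5 to 10 FPKM it was 1.496 for 10 genes under 1200 bp, beside 1.501 in 264 others, and 1.39 for 11 longer genes, beside 1.21 in 3704 others. From 10 FPKM up, it was 1.34 for 13 genes under 1200 bp, beside 1.43 in 530 others, and 1.44 for 8 longer genes, beside 1.17 in 9010 others. Across the 93 genes, log2(FPKM + 1) values correlated at r = 0.834 between air-dried 1 and 2, 0.923 between 1 and 3 and 0.926 between 2 and 3. These are correlations across genes, which are not independent replicates, of libraries that were all held to at least 2 FPKM.

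The 93 genes were close in median span to other genes scarcely detected in control leaves. Their median genomic span, introns included, was 1183 bp (quartiles 915 and 1922 bp), beside 1221 bp for the 16744 annotated genes under 1 FPKM in all controls and 3671 bp for the 21239 annotated genes tested. The range was narrower at the short end, with 4.30% of the 93 genes and 16.8% of those 16744 genes under 500 bp. Spans of 500 to 2000 bp made up 71.0% of the 93 genes, beside 54.9% of the 16744 and 19.7% of the tested genes. The 703 annotated genes called higher that are not among the 93 had a median of 2120 bp. The files list no exons, so transcript length and introns were not compared.

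**Figure D3:**
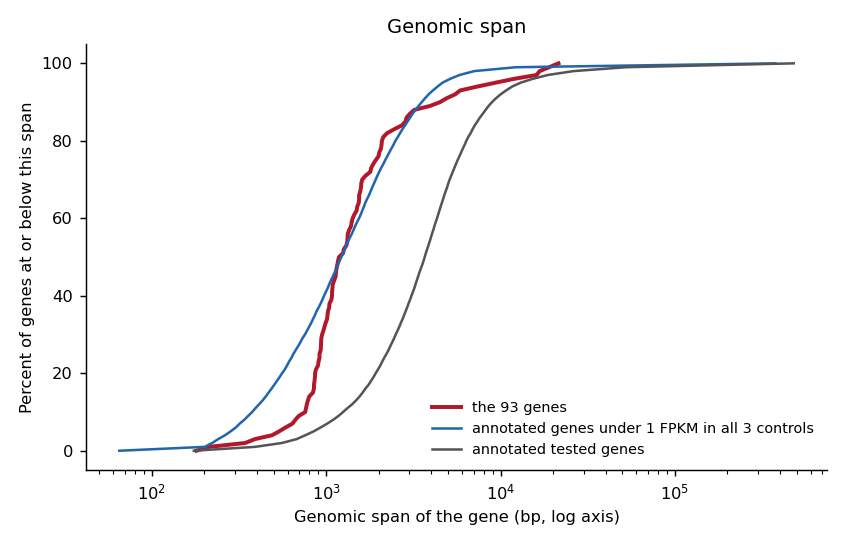
Cumulative percent of genes against genomic span (bp, log axis) for the 93 genes (red), the 16744 annotated genes under 1 FPKM in all 3 controls (blue) and the 21239 annotated tested genes (grey). The red and blue curves meet near their medians of 1183 and 1221 bp, while the grey curve lies to the right with a median of 3671 bp.

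The files list 1 transcript each for 73 of the 93 genes (78.5%), beside 91.4% of annotated genes under 1 FPKM in all controls and 22.3% of annotated tested genes. In the 21 genes averaging 10 FPKM or more, 20 had a single transcript. The strands were even, with 48 genes on plus and 45 on minus.

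For the 20 genes with several transcripts, the gene level did not always rest on the annotated model. Each of the 20 listed at least 1 transcript assembled from the reads. Assembled transcripts held more than 50% of the air-dried level in 11 genes, more than 90% in 5 and under 10% in 5. These shares were not computed for other annotated genes with several transcripts. Whether they are usual in these files was thus not tested. The clearest case of a level held by an assembled transcript lay on chromosome 17 (2410550 to 2426567, plus strand). Its annotated transcript, at 2426275 to 2426567, was listed at 0 in every library. An assembled transcript over the whole 16018 bp carried 15.4, 20.2 and 11.2 FPKM in air-dried leaves and was listed at 0 in all controls. On chromosome 6 (8464560 to 8470496) an assembled transcript had 2.99, 3.24 and 3.04 FPKM in air-dried leaves and 0.00198, 0.00269 and 0.00389 FPKM in controls, while both annotated transcripts ended at 8465611 and stayed under 0.5 FPKM in all libraries.

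**Figure D4:**
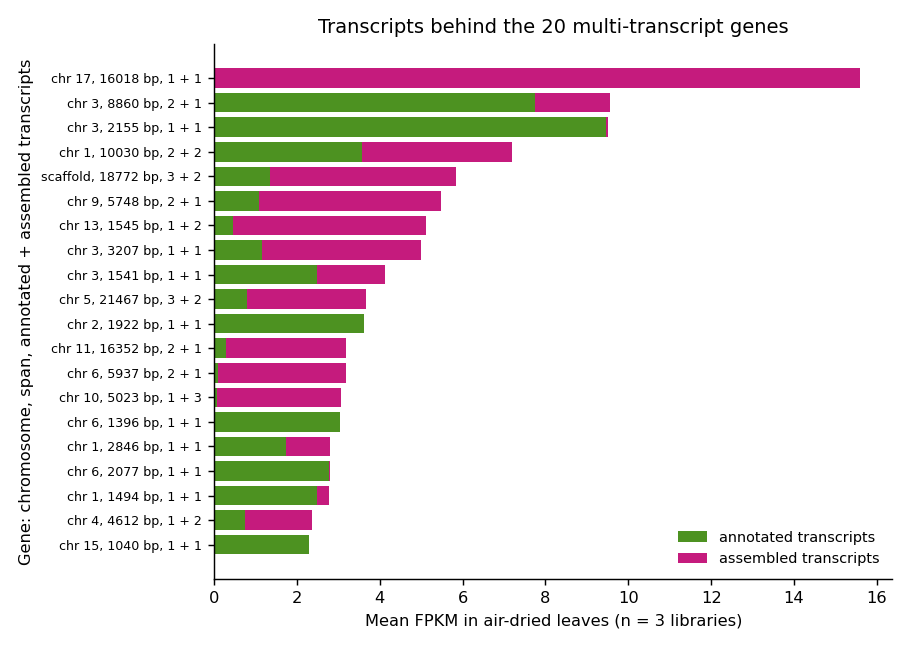
Mean FPKM in air-dried leaves (n = 3 libraries) of the 20 genes with several transcripts, split into annotated (green) and assembled (magenta) transcripts, with chromosome, genomic span and the number of annotated and assembled transcripts of each gene. Assembled transcripts hold all of the top gene on chromosome 17, and under 10% in 5 genes.

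In 7 of the 20 genes the locus held several annotated transcripts, and in 6 of these a long assembled transcript ran across annotated transcripts that carry different base identifiers. The chromosome 9 locus (11207645 to 11213392, plus strand) was one, with 5.17, 4.56 and 6.71 FPKM in air-dried leaves and 0 listed in all 3 controls. There the assembled transcript over the whole locus had 4.32, 3.19 and 5.69 FPKM in air-dried leaves. The annotated transcript at its right end (11212370 to 11213328) had 0.742, 1.37 and 1.02 FPKM in air-dried leaves. A locus on chromosome 3 (7322794 to 7331653) differed, since its left annotated transcript (7322794 to 7323370) alone held 81.0% of the air-dried level. When annotated transcripts alone were summed, 81 of the 93 genes still met the rule and 12 did not, and 6 others came in.

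Within 1 gene on chromosome 3 (2366194 to 2369400, plus strand) the libraries were split between transcripts. The annotated transcript had 3.44, 0.00286 and 0.0267 FPKM in air-dried 1, 2 and 3, and the assembled one, which starts at 2367262, had 0.00419, 5.84 and 5.71 FPKM. In controls the assembled transcript had 0.823, 0.802 and 0.949 FPKM. The gene sum was 3.44, 5.84 and 5.74 FPKM in the air-dried libraries and lay under 1 FPKM in each control.

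The 93 genes were spread over 18 of the 19 chromosomes, and 2 lay on unplaced scaffolds. Chromosome 6 held 12, chromosome 1 held 11 and chromosome 3 held 9, while chromosome 12 held 0. As a share of annotated genes under 1 FPKM in all controls, the highest was 1.34% on chromosome 7 (8 of 599), then 1.25% on chromosome 6 (12 of 958) and 1.16% on chromosome 3 (9 of 778), beside 0.555% over all chromosomes. The chromosomes were not tested.

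On chromosome 6, 1 pair of the 93 genes lay side by side with no annotated gene between them. Both are on the plus strand, 3783 bp apart, at 11398834 to 11399764 and 11403548 to 11404485. The left gene measured 13.6, 13.5 and 13.7 FPKM in air-dried leaves and 0.769, 0.00 and 0.0862 FPKM in controls. The right gene is the one given above at 24.8 to 28.2 FPKM in air-dried leaves. The next annotated gene to the right (11415819 to 11416430, also on plus) is not one of the 93. That gene measured 8.65, 4.78 and 6.90 FPKM in air-dried leaves and 1.70, 1.93 and 0.872 FPKM in controls. It was called higher, by 1.63 on the log2 scale (SE 0.25, limma with Benjamini-Hochberg adjusted p = 0.0206, 3 of 3 air-dried libraries above all controls).

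Another close pair lay on the minus strand of chromosome 17, at 5627545 to 5628871 and 5634566 to 5635896. The first measured 13.5, 8.30 and 13.6 FPKM in air-dried leaves and 0.630, 0.693 and 0.448 FPKM in controls, and the second 7.26, 10.1 and 11.6 FPKM in air-dried leaves and 0.444, 0.126 and 0.504 FPKM in controls. An assembled plus-strand transcript of 216221 bp (5628345 to 5844565) overlaps 527 bp of the first and all 1331 bp of the second, and the libraries do not mark strand, so reads there cannot be assigned to 1 strand. In all, 10 of the 93 genes lay within 100 kb of another, and 11 overlapped some other gene of the files. Shares over all annotated genes are not given beside these counts, so nothing about clustering is read from them.

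The neighbours of the 93 genes were not used by the rule, and most did not pass the test. Of 181 annotated genes next to one of the 93 on either side, 115 had enough signal to be tested. Of these, 7 were called higher (6.09%), beside 3.32% of 21146 tested annotated genes outside the 93 (limma, Benjamini-Hochberg adjusted p under 0.05). None was called lower (0 of 115), beside 0.662% of those genes. At an unadjusted limma p under 0.05, 19 neighbours were higher (16.5%) and 10 lower (8.70%), beside 10.5% higher and 5.72% lower of those genes. With library weights 16 neighbours were called higher and 5 lower, and with libraries scaled to a common sum 3 higher and 1 lower. The median log2 difference of the 115 neighbours was 0.0032, beside 0.0063. With the 2 neighbours that overlap one of the 93 left out, 6 of 113 were called higher (5.31%). The count fell to 4 without air-dried 1, air-dried 3, control 1 or control 2, and with a replicate block.

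Among the neighbours called higher, the change was largest in the long chromosome 17 locus that overlaps the pair above. It had 24.1, 33.8 and 36.5 FPKM in air-dried leaves and 1.99, 1.66 and 1.53 FPKM in controls, 3.56 on the log2 scale (SE 0.17, limma adjusted p = 0.000191). Next came a minus-strand gene on chromosome 13 (7114706 to 7116944), 10187 bp from one of the 93, with 18.6, 16.2 and 18.2 FPKM in air-dried leaves and 1.32, 0.788 and 0.303 FPKM in controls (3.41 on the log2 scale, SE 0.21, limma adjusted p = 0.000537). Only its value in control 1 kept that gene from meeting the rule. The chromosome 6 neighbour was given above with its pair. The other 4 neighbours, on chromosomes 8, 1, 13 and 4, lay 581 to 5527 bp away and were higher by 0.56 to 1.02 on the log2 scale (limma adjusted p between 0.00314 and 0.0408). In each of these 4, all air-dried libraries lay above all controls. The chromosome 4 neighbour, for one, had 74.7, 72.2 and 82.0 FPKM in air-dried leaves and 48.0, 56.6 and 50.2 FPKM in controls. The most negative difference, −2.97, belonged to a 219 bp gene on chromosome 7 with 0.00, 3.20 and 0.00 FPKM in air-dried leaves and 22.0, 23.1 and 2.62 FPKM in controls, and it did not pass the test (limma adjusted p = 0.176).

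**Figure D5:**
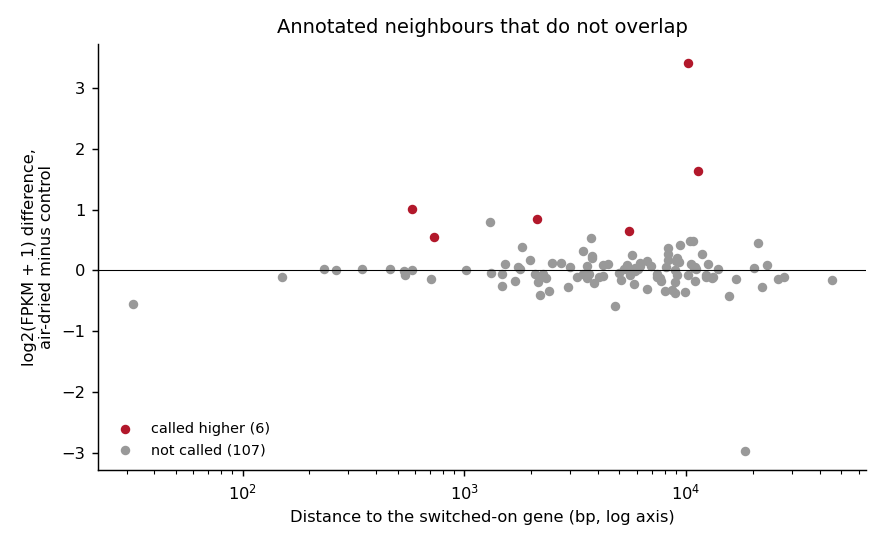
Difference on the log2(FPKM + 1) scale, air-dried minus control, of the 113 tested annotated neighbours that do not overlap one of the 93 genes, against their distance to it (bp, log axis). The 6 neighbours called higher (red) lie at 0.56 to 3.41, and most of the other 107 (grey) lie near 0.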

How the data were processed

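Poly(A) RNA from leaves was made into TruSeq RNA libraries and read as paired ends of 100 bp, per the labels' protocols. FastQC, TopHat and Cufflinks appear in the submitters' processing notes. Their versions, the genome build, the annotation and any scaling between libraries were not given in the sources used here. Per the file headers, the deposited values are FPKM, 1 per transcript and library. Coordinates are those of the files, counted from 1.

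For each gene identifier, transcript FPKM were summed (pandas 2.3.3), and the rule was applied to these sums. Genes reaching 1 FPKM in 3 or more of 6 libraries were tested with limma 3.58.1 (intensity trend, 2-sided, group as the sole term) in R 4.3.3 on log2(FPKM + 1), after a trial on simulated data. Benjamini-Hochberg adjustment was over all tested genes. They measure only the spread between these libraries, which may be technical. The 93 genes were chosen with earlier results of these data known. Neighbours are the nearest annotated genes by start position.

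Genes were to be named by level, size of change, position, edge and spread, and without names only the first 2 by air-dried mean are given by identifier. The gene lists drawn up by product name were not run (0 lists), since no product names were available.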

Additional observations from a re-analysis of the deposited data

How the results depend on the processing

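The number of genes meeting the rule followed its thresholds and the scaling. It was 45 with a control ceiling of 0.5 FPKM, 231 with 2 FPKM, 233 with an air-dried floor of 1 FPKM and 39 with 4 FPKM. Libraries scaled to a common sum gave 59 genes, 56 of them among the 93. Leaving out 1 library gave 103 to 109 genes, a count that could not fall, since the rule asks every library to pass. The other settings, those on transcripts, on a common median and on loci left out, gave 82 to 92. The median log2 difference of the 93 genes was 3.85, 2.73 and 0.80 with pseudocounts of 0.1, 0.5 and 5 and 2.30 with a common sum, and 2.02 to 2.14 without 1 library. The 971 genes called over all tested genes became 553 with a mean of at least 5 FPKM, 437 with a common sum, 2516 with library weights, 1327 without control 3 and air-dried 1 (chosen after seeing the data) and 538 with annotated transcripts alone. Without 1 library they were 477 to 693, the fall being over 1.5-fold without air-dried 3 (477) or 2 (568) and without control 2 (536) or 1 (578). A common sum moved the median log2 difference of all tested genes to 0.31. Neighbours called higher were 3 with a mean of at least 5 FPKM, 3 with a common sum, 16 with library weights and 4 to 5 without 1 library. The causes were not tested. The labels do not say that shared replicate numbers pair the samples. Deviations of same-numbered libraries correlated at 0.24, −0.15 and 0.12, beside −0.356 to 0.31 for differently numbered ones. With the replicate block, 557 genes and 4 neighbours were called. Gene lists and count models were not run, and depth is unknown.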

Other observations

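Among 2158 loci known from assembled reads alone, 6 met the values of the rule, beside 93 of all 38379 annotated genes. The 6 loci spanned 174 to 1373 bp, and 3 had no strand. The highest, on chromosome 12 (497298 to 497471), had 56.8, 19.1 and 5.04 FPKM in air-dried leaves and was listed at 0 in all 3 controls. The steadiest in its air-dried values, on the minus strand of chromosome 6 (1056792 to 1057873), had 10.9, 11.4 and 10.6 FPKM in air-dried leaves and 0.545, 0.350 and 0.00 FPKM in controls. The 3 genes that met the rule with the groups exchanged lay on chromosomes 2, 8 and 14. The longest of them had 0 FPKM listed in every air-dried library and 8.95, 15.6 and 2.75 FPKM in controls 1, 2 and 3.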
